A study of Rattus norvegicus with 42 samples.

Results

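The comparison set a liver sample that carried 5% brain and 25% lung beside pure liver, each on 3 arrays, 6 of the 42 arrays of the series. The groups were taken from the tissue label of each array. The 3 arrays of the first group held cRNA (the labelled copy RNA that is put on an array) of liver, brain and lung combined at 70%, 5% and 25%, called the mixture here. The other 3 arrays held cRNA of liver alone. Both groups came from untreated rats of 9 to 12 weeks. Strain and sex are not given in the sources used here. The 14 groups of the series were 3 pure tissues and 11 mixtures, and its title names a test of how well tissue composition can be recovered by statistics. Within a group the arrays are technical replicates, so p-values measure the spread between arrays only, and the number of arrays limits the precision.

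Hepatocytes make most plasma proteins and carry out bile acid synthesis, urea production and the breakdown of drugs. The lung holds surfactant-making and gas-exchange epithelium, airway secretory cells, a dense capillary bed and many leukocytes, and the brain holds neurons, astrocytes and the oligodendrocytes that wrap axons in myelin. Genes used by only a few of these cell types act as tracers when material of one tissue enters a profile of another.

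All values are log2 levels per probe set, a set of short oligonucleotides that together read one transcript. The medians of the arrays were 5.48 in liver and 5.67 to 5.68 in the mixture, and the median SD between replicate arrays was 0.12 and 0.09. The bacterial dap controls read 2.84 in liver and 2.62 in the mixture, so folds against levels near 3 are approximate. Liver carried its defining transcripts, with albumin (Alb) at 14.31 ± 0.08 (log2, SD, n = 3) and Apoc3 at 13.58 ± 0.03. Within a pure tissue, fewer cells of a type and less RNA per cell cannot be told apart.

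The study's design text gives a single animal as the source of the 3 tissues, and the levels of genes that depend on sex, looked at after their values were seen, went against that. Xist, the RNA that silences an X chromosome in female cells, read 11.09 ± 0.03 in liver and 11.25 ± 0.07 in brain but 2.88 ± 0.03 in lung (log2, SD, n = 3, the brightest of 4 probe sets). Eif2s3y, a gene of the Y chromosome, read 3.13 ± 0.43 in liver, 2.48 ± 0.13 in brain and 8.97 ± 0.05 in lung. In liver, Cyp2c12, the P450 enzyme of female rat liver, read 13.15 ± 0.05, while the male enzymes Cyp2c11 and Cyp3a2 read 4.20 ± 0.22 and 3.43 ± 0.34. Other Y-linked probe sets did not follow the Eif2s3y pattern. The brighter of 2 Uty probe sets read 8.88, 7.88 and 8.30 in liver, brain and lung, and Sry read 3.89, 3.34 and 4.24. For what lung adds to the mixture, tissue and animal therefore cannot be told apart.

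Foreign transcripts rose steeply in the mixture, while liver transcripts fell by modest amounts. The largest rise of a gene was 749-fold (Scgb1a1, an airway protein) and the largest fall was 2.99-fold (Mbnl3, a regulator of RNA splicing). A change was called at a Benjamini-Hochberg adjusted p under 0.05 in limma and at least 1.2-fold. Of 31042 probe sets, 6555 (21.1%) were called higher and 12535 (40.4%) lower in the mixture. Without probe sets that were dim in every group of the series, 6266 were higher and 6242 lower, so the falls included many dim probe sets. The 5th percentile of the arrays was 3.18 to 3.19 in liver and 2.99 to 3.01 in the mixture. With 1 probe set per gene, 3615 of 14217 genes (25.4%) were called higher and 5326 (37.5%) lower, with a median change of -0.14 over all genes. All 3 mixture arrays lay above all 3 liver arrays for 4018 genes (28.3%) and below them for 6357 (44.7%). The median change depended on the scaling of the arrays, at -0.33 after centring each array on its median and 0.23 after a shift by the hybridisation controls. The share of called probe sets that were higher was 34.3% as deposited, 20.7% with median centring, 34.2% after quantile normalization and 42.3% after background subtraction. With the control shift it was 93.8%, or 82.6% when the 60/35/5 mixture, whose controls spread most, was left out of the fit. The dimmest control used for the shift, bioB, read 8.48 in liver and 8.08 in the mixture. The upper quartiles of these arrays were 7.27 to 7.40, so most probe sets lay below every control used. For these the shift was held at its value for bioB.

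The rises were divided by a contrast that shared no array with the comparison, pure lung against pure brain, called at 2-fold. It gave 4951 probe sets higher in lung (15.9% of those tested) and 4666 higher in brain (15%). Of the lung-higher probe sets, 2430 (49.1%) rose in the mixture and 1047 (21.1%) fell, and they made up 37.1% of all rises. Of the brain-higher probe sets, 1932 (41.4%) rose and 1011 (21.7%) fell, and they made up 29.5% of all rises. Brain was labelled as 5% of the material, and lung as a larger share. A brain-higher call needed only 2-fold over lung, so lung can also contribute to these rises. The 29.5% is therefore not the yield of the brain share alone. The 21425 probe sets without a call between lung and brain held the other 2193 rises (10.2% of them) and 10477 of the falls (48.9% of them).

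A stricter reading asked which genes came up from near the floor. A gene was counted when it lay under the lower quartile of every liver array (4.17 to 4.18) and above the median of every mixture array. Of 1722 genes that low in liver, 131 (7.61%) met this. Of the 131, 39 were higher in lung than in brain, 86 higher in brain and 6 neither. These labels compare the pure tissues only, so a gene higher in brain can also owe part of its rise to lung. The reverse, above the median in liver and under the lower quartile in the mixture, was met by 0 of 8913 genes. That count was nearly fixed by the design. It needed a fall from above 5.48 to under 4.05 to 4.07, while dilution to 70% alone gives -0.51.

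Airway and alveolar genes gave the tallest signals. Scgb1a1, which encodes the club cell secretory protein, read 4.15, 3.61 and 3.81 on the liver arrays and 13.43, 13.36 and 13.41 on the mixture arrays. The groups lay far apart, and the mixture came close to pure lung (14.04). The change was 9.55 ± 0.08 (log2, SE; limma, Benjamini-Hochberg adjusted p = 1.56e-40). Sftpc, a surfactant protein of alveolar type 2 cells, read 4.68, 4.04 and 4.69 in liver and 13.25, 13.27 and 13.26 in the mixture, a 442-fold rise. Each mixture array was above each liver array for both genes. The surfactant gene Sftpa1 rose 269-fold, Sftpb 167-fold and Lamp3, a lamellar body protein, 208-fold. All 12 alveolar type 2 genes measured rose, with a median change of 4.33. The smallest rises among them were 2.11-fold for Abca3, the lipid transporter of lamellar bodies, and 2.71-fold for the transcription factor gene Etv5, whose probe sets disagreed, 1 higher and 1 lower.

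Of the airway genes, 8 of 10 rose, with a median change of 2.67. Sec14l3, a lipid-binding protein of ciliated cells, rose 103-fold and the tubulin-binding Tppp3 24.2-fold, against 1.23-fold for Foxj1, the regulator of cilia. Reg3g did not pass the test (adjusted p = 0.407 in limma) and was near the floor everywhere. Cyp2f4 went the other way, reading 9.15, 9.30 and 9.29 in liver and 8.88, 8.98 and 8.82 in the mixture. This P450 enzyme of club cells read 9.25 in pure liver and 8.94 in pure lung. It fell 1.28-fold, a call not made with the control shift. All 8 genes of alveolar type 1 cells rose, with a median change of 4.86. Hopx rose 55.9-fold and the receptor gene Ager 28.5-fold, while the chloride channel gene Clic5 rose 2.13-fold.

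**Figure D1:**
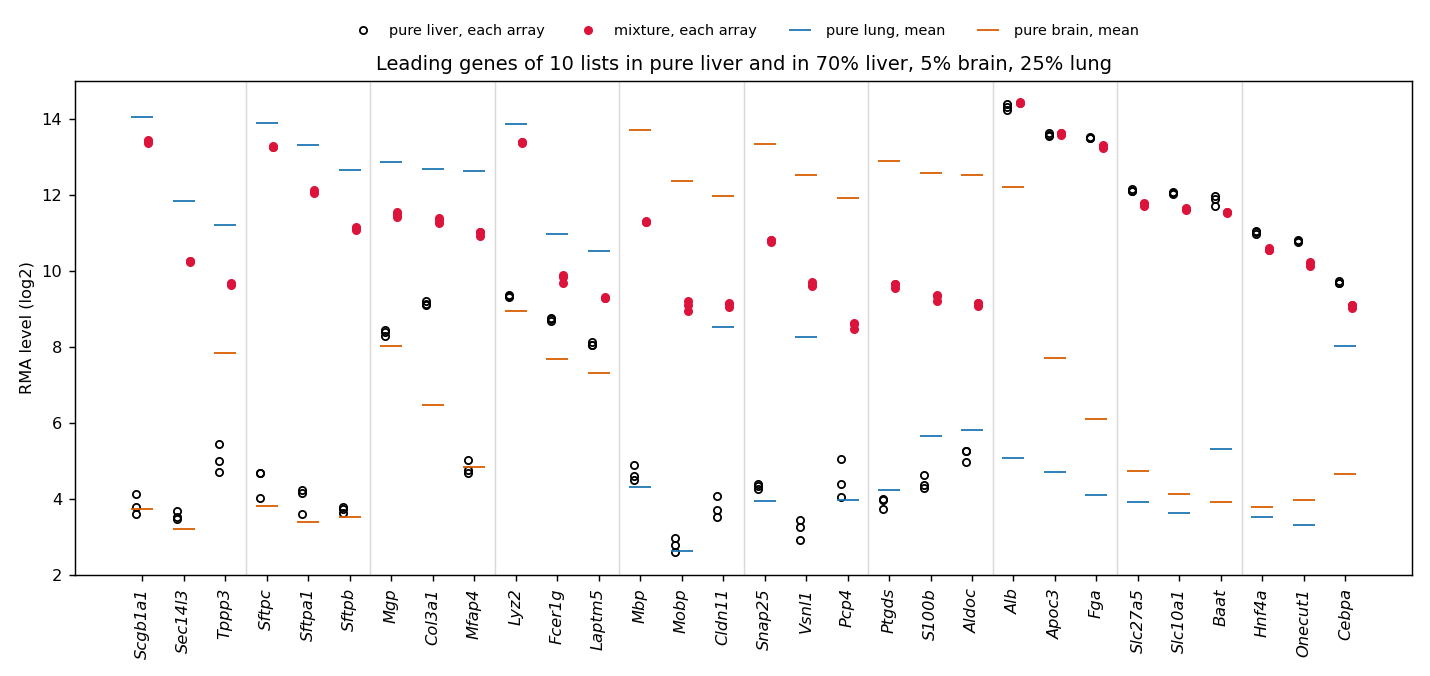
Log2 level of the leading genes of 10 lists on each of the 3 liver and 3 mixture arrays, with the means of pure lung and pure brain marked. Scgb1a1 and Sftpc sit near 4 in liver and above 13 in the mixture, Mbp and Snap25 move from under 5 to about 11, and albumin stays at about 14 in both groups.

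Vessel, matrix and immune genes rose less, from higher levels in liver. All 15 endothelial genes rose, with a median change of 1.73. The tight junction gene Cldn5 read 4.30, 4.53 and 4.09 in liver and 10.14, 10.12 and 10.11 in the mixture, a 56.4-fold rise. Kdr, the receptor for vascular endothelial growth factor, was already at 9.95, 10.09 and 9.91 in liver and rose 1.59-fold, to 10.61, 10.64 and 10.70. Eng, a receptor of the transforming growth factor family, had the smallest rise of the list, 1.58-fold. All 15 matrix and smooth muscle genes rose, with a median of 2.17, from 1.92-fold for desmin (Des) to 71.3-fold for Mfap4, a microfibril protein.

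Of 14 leukocyte genes, 12 rose, with a median of 1.26. Lyz2, the lysozyme of macrophages, read 9.36, 9.35 and 9.31 in liver and 13.37, 13.36 and 13.38 in the mixture, a 16.3-fold rise. Cd68 changed by 0.12 and the mannose receptor gene Mrc1 by -0.06, and neither passed the test (adjusted p = 0.163 and 0.282 in limma). Of 9 genes of antigen presentation on MHC class II, 8 rose, with a median of 1.17, led by RT1-Bb at 3.98-fold. Ctss, a protease of that pathway, changed by 0.20, under the fold limit. The probe sets of RT1-Ba, counted as a rise, disagreed, 2 higher and 2 lower.

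Genes of heart muscle, which the walls of lung veins in rodents also contain, rose in 6 of 9 cases, with Myh6, a cardiac myosin, at 4.10, 3.58 and 4.37 in liver and 8.04, 7.92 and 7.74 in the mixture, a 14.7-fold rise. The atrial light chain Myl7 rose 10.2-fold. Ryr2, the calcium release channel, rose 7.47-fold but was higher in pure brain (9.37) than in pure lung (5.74). Nppa, Myl3 and Tnnc1 did not pass the test, and their groups overlapped.

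Chemokine and defence genes outside the lists were also among the 10 largest rises. Cxcl3, which attracts neutrophils, read 2.94, 3.01 and 2.91 in liver and 11.17, 11.24 and 11.15 in the mixture, a 301-fold rise, although only 2 of its 5 probe sets were called. The defensin gene Defb4 rose 118-fold and Ly6i 94.7-fold. Eif2s3y rose 19.1-fold, to 7.37, 7.46 and 7.33 in the mixture.

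Brain transcripts were plain in the mixture in spite of the 5% share. Mbp, the myelin basic protein gene, read 4.91, 4.51 and 4.62 in liver and 11.28, 11.30 and 11.28 in the mixture. That was a change of 6.61 ± 0.06 (log2, SE; limma, Benjamini-Hochberg adjusted p = 2.1e-40), or 97.5-fold, and 2 of its 3 probe sets were called higher. The myelin gene Mobp rose 78.3-fold and Cldn11, the tight junction protein of the myelin sheath, 40.7-fold. Cldn11 read 8.54 in pure lung, from which 30.7% of its level predicted by linear mixing came. In all, 10 of 12 myelin and oligodendrocyte genes rose, with a median of 2.39. The lineage factors Sox10 and Olig2 changed by -0.44 and -0.39 and were called lower, although no myelin gene was called lower with the control shift. Olig2 was near the floor in all pure tissues, with 4.03 in brain.

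All 23 neuronal genes rose, with a median of 3.97. Snap25, part of the vesicle fusion machinery, read 4.39, 4.28 and 4.34 in liver and 10.81, 10.82 and 10.75 in the mixture, an 87.8-fold rise. The calcium sensor gene Vsnl1 rose 85.9-fold and Map2, of the dendritic cytoskeleton, 39.6-fold. Vsnl1 read 8.27 in pure lung, from which 20.5% of its predicted level came. The smallest rise was 1.69-fold for synaptophysin (Syp), which read 7.44, 6.42 and 6.96 in liver and 7.65, 7.93 and 7.52 in the mixture. Cpe, a prohormone-processing enzyme outside the lists, rose 69.0-fold, with some of that predicted from lung, where it read 9.06.

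Of 10 receptor genes for glutamate and GABA, 8 rose, with a median of 0.90. Gabra6, a GABA receptor subunit of cerebellar granule cells, read 2.77, 2.89 and 2.82 in liver and 7.54, 7.37 and 7.33 in the mixture, a 24.0-fold rise. Grm5 rose 1.37-fold with the groups overlapping, Grin2b did not pass the test (adjusted p = 0.999 in limma), and Gria4 fell 1.36-fold from a liver level of 7.43, a call not made with the control shift. For Camk2a, Grm5, Grin2a and Gria4 the probe sets of the gene disagreed in direction.

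Of 9 astrocyte genes, 7 rose, with a median of 3.95, led by the water channel gene Aqp4 at 66.7-fold and Ptgds, a prostaglandin synthase, at 52.2-fold. Aqp4 read 9.37 in pure lung and 11.65 in pure brain, so part of its rise is predicted from lung. Ptgds read 4.25 and 12.90. Slc1a2 and Fabp7 fell, where the control shift left 1 astrocyte gene called lower, and 2 when the 60/35/5 mixture was left out. Fabp7, a fatty acid binding protein, read 9.16, 9.24 and 9.11 in liver and 8.56, 8.61 and 8.61 in the mixture, against 9.55 in pure brain. The glutamate transporter gene Slc1a2 fell 2.12-fold, and its probe set was higher in liver (6.67) than in brain (6.05). On the probe sets read here, both genes already had signal in pure liver. Whether the Slc1a2 probe set reports its transcript was not tested.

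**Figure D2:**
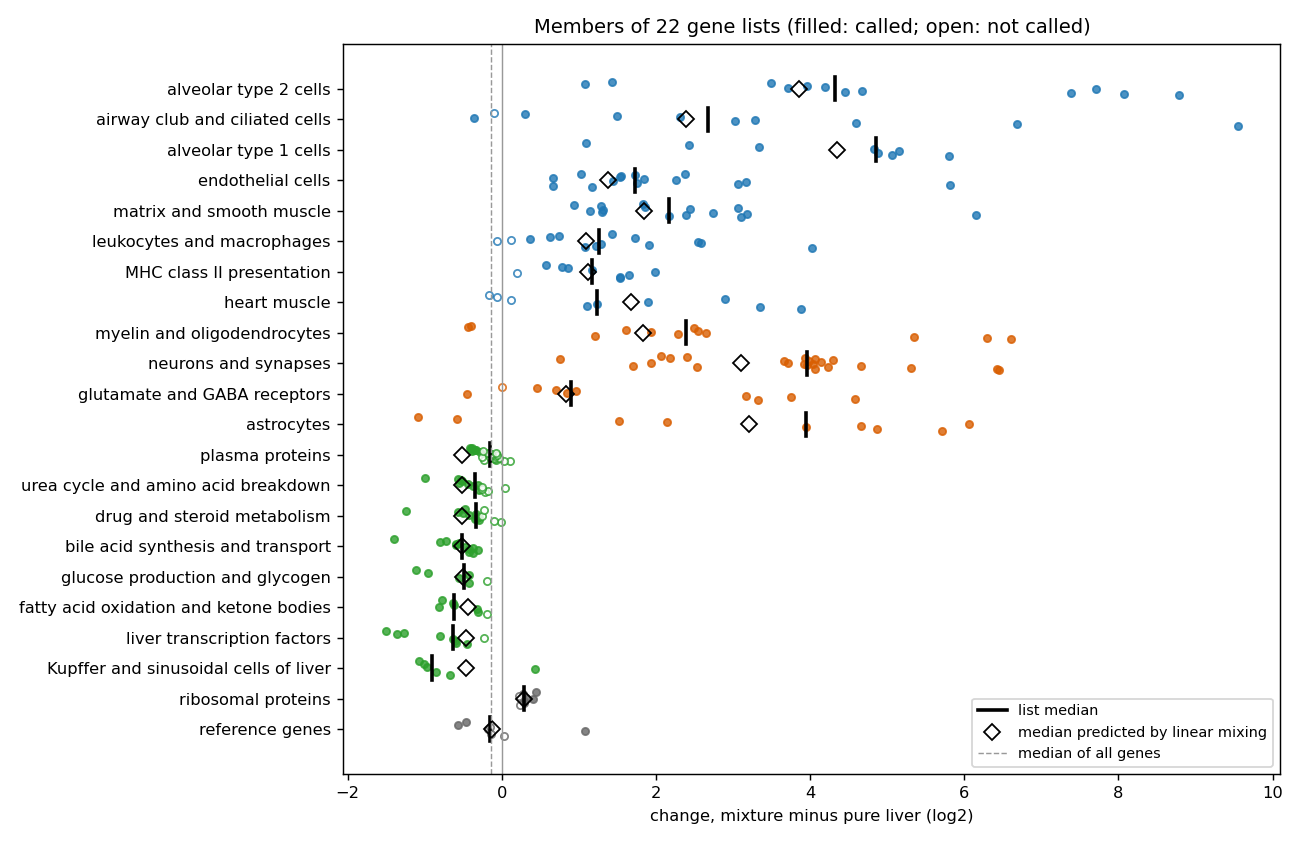
Log2 change, mixture minus liver, of every measured member of each gene list, 1 point per gene, with bars for list medians, diamonds for the medians linear mixing predicts, and called genes filled. Lung and brain lists lie mostly above 0, with medians from 0.90 to 4.86, and the liver lists have medians from -0.91 to -0.15. Ribosomal protein genes, with a median of 0.29, had no calls after median centring.

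Taking all lists of a home tissue, 84 of 92 lung-list genes rose and 1 fell. Of 54 brain-list genes 48 rose and 5 fell, and of 92 liver-list genes 1 rose and 62 fell. With the control shift 17 liver-list genes were lower, and 73 when the 60/35/5 mixture was left out. The lists were drawn up with these tissues in mind, and all genes were called at 25.4% higher and 37.5% lower.

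Diluting liver to 70% alone lowers a transcript that no other tissue contributes by 0.51 on the log2 scale, and the liver lists ranged around that value. Albumin read 14.39, 14.22 and 14.32 in liver and 14.40, 14.43 and 14.40 in the mixture, so each mixture array was slightly above each liver array, and the change did not pass the test (adjusted p = 0.153 in limma). Apoc3, a lipoprotein component, changed by 0.02 and Ttr, the thyroxine carrier, by -0.03. Of 24 plasma protein genes, 7 were called lower and 17 were not called, with a median change of -0.15 where -0.51 was predicted. Small falls were more common than the calls. All mixture arrays lay below all liver arrays for 20 of the 24, against 44.7% of all genes. Fga, a fibrinogen chain, changed by -0.23 (adjusted p = 0.00181 in limma), under the fold limit, while the other of its 2 probe sets was called lower. Those called lower included Mbl2, a lectin of innate immunity, at 75.4 ± 4.1% of liver. The count of 7 rested on the scaling, with 20 called lower after median centring and 8 after quantile normalization. With the control shift 0 were called lower, and 12 with that shift without the 60/35/5 mixture.

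Enzyme genes also fell by modest amounts. Of 14 urea cycle and amino acid genes 9 fell, with a median of -0.34. After median centring 13 were lower, 7 after quantile normalization, 1 with the control shift and 13 with that shift without the 60/35/5 mixture. Cps1, the first enzyme of the urea cycle, read 12.63, 12.33 and 12.58 in liver and 12.59, 12.58 and 12.49 in the mixture, with the groups overlapping. Its probe sets disagreed, and the dimmer of the 2 was called lower, with a change of -0.30. Sds, serine dehydratase, read 8.23, 8.28 and 8.21 in liver and 7.32, 7.26 and 7.17 in the mixture, 50.3% of liver. Of 14 drug and steroid metabolism genes 10 fell, with a median of -0.33 (2 with the control shift, 10 without the 60/35/5 mixture). Cyp2c7 was level, at 13.42 in both groups, and Cyp2e1, the ethanol-inducible P450, was at 93.4% of liver. Cyp3a18, at 8.28 in liver, was at 42.2%.

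All 12 genes of bile acid synthesis and transport fell, with a median of -0.51 as deposited, the value of plain dilution. The median was -0.70 after median centring, -0.44 after quantile normalization and -0.52 with the control shift. Cyp7a1, the rate-limiting enzyme of bile acid synthesis, read 10.19, 10.34 and 10.26 in liver and 9.67, 9.71 and 9.64 in the mixture. The groups did not overlap, and the mixture stood at 66.5% of liver (limma, adjusted p = 3.47e-08). The uptake transporter gene Slc10a1 was at 74.6%, and Nr0b2, the receptor that represses Cyp7a1, at 37.9%. With the control shift 3 of them were called lower, and all 12 when the 60/35/5 mixture was left out. The call of Baat, which conjugates bile acids, was lost without liver replicate 1 (change -0.26, adjusted p = 0.0115, under the fold limit).

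Of 6 glucose and glycogen genes 5 fell, with a median of -0.49, from 74.5% of liver for the gluconeogenic enzyme gene Fbp1 to 46.2% for Gys2, liver glycogen synthase. With the control shift 3 were called lower, and 6 when the 60/35/5 mixture was left out. Pck1, the entry enzyme of gluconeogenesis, changed by -0.20, under the fold limit. Of 7 genes of fatty acid oxidation 6 fell, with a median of -0.62. After quantile normalization 4 were lower, 1 with the control shift and 7 with that shift without the 60/35/5 mixture. Acadm, a dehydrogenase of this pathway, was at 80.9% of liver.

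Of 9 transcription factors of liver 8 fell, with a median of -0.63. With the control shift 4 were called lower, and 8 when the 60/35/5 mixture was left out. Hnf4a, at 11.06, 10.98 and 11.01 in liver, fell to 72.9%. Foxa1, at 7.66, 8.08 and 7.90, read 6.65, 6.38 and 6.54 in the mixture, or 39.1%. Nr1i3, the receptor that senses foreign compounds, read 6.29, 6.40 and 6.42 in liver and 5.06, 4.67 and 4.87 in the mixture, or 35.3 ± 4.2% of liver. Foxa2, which lung also expressed at 8.88, changed by -0.23, under the fold limit.

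Macrophage and sinusoidal genes of liver fell in 5 of 6 cases, with a median of -0.91. With the control shift 3 fell, and 5 when the 60/35/5 mixture was left out. Clec4f, a lectin of Kupffer cells, was at 62.6% of liver, and Stab2, a scavenger receptor of sinusoidal endothelium, at 49.6%. Lyve1, a hyaluronan receptor of sinusoidal and lymphatic endothelium, rose from 9.49, 9.49 and 9.38 to 9.88, 9.93 and 9.84, with 10.76 in pure lung. Its call was lost after median centring, where the change was 0.24.

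The 10 largest falls were of genes with liver levels between 6.12 and 7.83. Plin5, which coats lipid droplets, read 6.16, 6.27 and 5.92 in liver and 4.62, 4.33 and 4.76 in the mixture, and Mbnl3 read 6.97, 7.19 and 7.15 against 5.61, 5.39 and 5.57. Acmsd, an enzyme of tryptophan breakdown, fell to 36.5 ± 3.3% of liver. Gucy1b2, Wfdc3, Mmp19, Mab21l3, Slc25a21, Nr1i3 and Nr0b2 completed the group, each at 34.3% to 37.9%.

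Of 8 ribosomal protein genes 6 rose, though none was called after median centring or with the control shift, and 3 were when the 60/35/5 mixture was also left out. Their changes ran from 0.23 to 0.45, with a median of 0.29, the value linear mixing predicted. Of 7 reference genes often used to normalize expression, 1 was higher and 2 lower as deposited, 1 and 5 after median centring, and 1 and 0 with the control shift. The higher one was Ywhaz, an adaptor protein gene, at 9.42, 9.56 and 9.47 in liver and 10.53, 10.61 and 10.56 in the mixture. B2m, the light chain of MHC class I, changed by 0.03 as deposited (adjusted p = 0.481 in limma), and by -0.17 after median centring and -0.08 with the control shift.

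The size of these changes was set beside linear mixing, the sum of 0.7 of liver, 0.05 of brain and 0.25 of lung on the linear scale. The predicted value uses the same liver arrays as the change. Of 14217 genes, 96.4% were not called beyond 1.5-fold of it, with 181 genes above (1.27%) and 332 below (2.34%). Among list genes, 31 of 54 from brain lists were above and 1 below, 7 of 92 from lung lists were above and 0 below, and 1 of 92 from liver lists was above and 7 below. The largest excess was in Mbp, at 1.85, followed by Snap25 at 1.73, Cpe at 1.45, Sftpc at 1.37 and Scgb1a1 at 1.36. The largest shortfalls were in Mbnl3 at -1.15, Plin5 at -1.14, Gucy1b2 and Wfdc3 at -1.07 and Nr1i3 at -1.05. The counts moved with the scaling, to 18 probe sets above and 8 below with the control shift, against 307 (0.989%) and 848 (2.73%) as deposited.

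**Figure D3:**
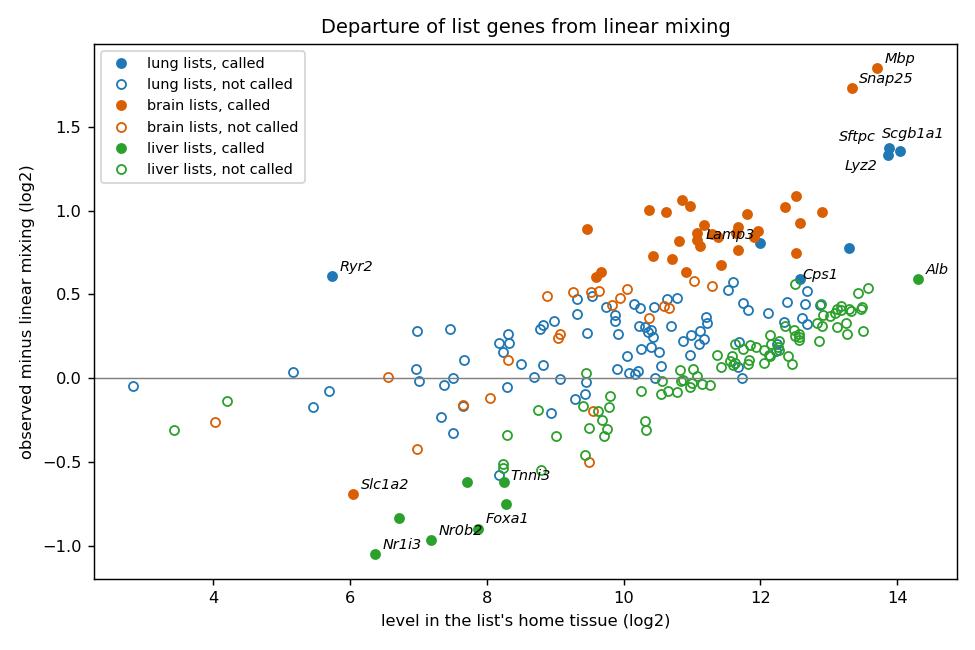
Observed minus linearly predicted log2 level of each list gene against its level in the home tissue of its list, with called departures filled. Most called brain genes and the brightest lung genes lie above 0, and dim liver genes such as Nr1i3, Nr0b2 and Foxa1 lie below it. The level in the home tissue is part of the prediction, so it enters both axes for the genes of every list.

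Read as a share, the excess was large. The level of a lung gene in the mixture, less that of liver, over the level in lung less liver is the apparent lung share, labelled as 25%. It was 64.1 ± 3.6% (SE) for Scgb1a1, 64.9% for Sftpc and 69.6% for Lyz2, but 34.0% for Sftpb and 33.3% for Sec14l3. In the 70/25/5 mixture, labelled as 5% lung, Scgb1a1 gave 30.5%. The apparent brain share, labelled as 5%, was 18.5 ± 0.73% for Mbp, 17.0% for Snap25 and 10.3% for Mobp. For Eif2s3y, the apparent lung share was 32.1 ± 3.0%.

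Sets chosen without any of the 6 arrays showed how the share varied with level. Liver transcripts, at least 16-fold higher in the 70/25/5 mixture than in brain and lung, numbered 276, of which 221 (80.1%) fell and 0 rose. Their mixture level was 60.0% of liver at levels of 8 to 10, 75.0% at 10 to 12 and 90.7% above 12, where 11 of 62 fell. The labelled share was 70%. Lung transcripts, at least 8-fold higher in lung than in brain and in the 65/34/1 mixture, numbered 656, of which 655 (99.8%) rose. Their apparent share went from 24.1% at levels of 6 to 8 through 31.1% and 32.3% to 34.9% above 12. The rule left out lung genes that stayed high in the 65/34/1 mixture, such as Lyz2 (13.87 in lung, 11.12 in that mixture). Brain transcripts by the first rule numbered 20, with 11 higher and an apparent share of 2.10%. That rule asked for at least 8-fold over lung and at least 4-fold over the 55/20/25 mixture, itself labelled as 20% brain. Genes with a high share were thus left out, such as Mbp (13.71 in brain, 12.68 in that mixture). The low share therefore follows in part from the rule. A wider rule, chosen after seeing the data, took 1299 probe sets at least 2-fold over the 55/20/25 mixture. Of these 1015 (78.1%) rose and 53 fell, and the apparent brain share was 2.68% at levels of 6 to 8, 6.73% at 8 to 10, 9.48% at 10 to 12 and 11.6% above 12. At levels of 6 to 8, 199 of 396 rose (50.3%). The wider rule also limited the share in the 55/20/25 mixture, though less strictly. Lung signal was not subtracted, and the rule let lung reach 8-fold below brain, so lung can raise the apparent brain share. The part of signal level in these departures was not tested.

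**Figure D4:**
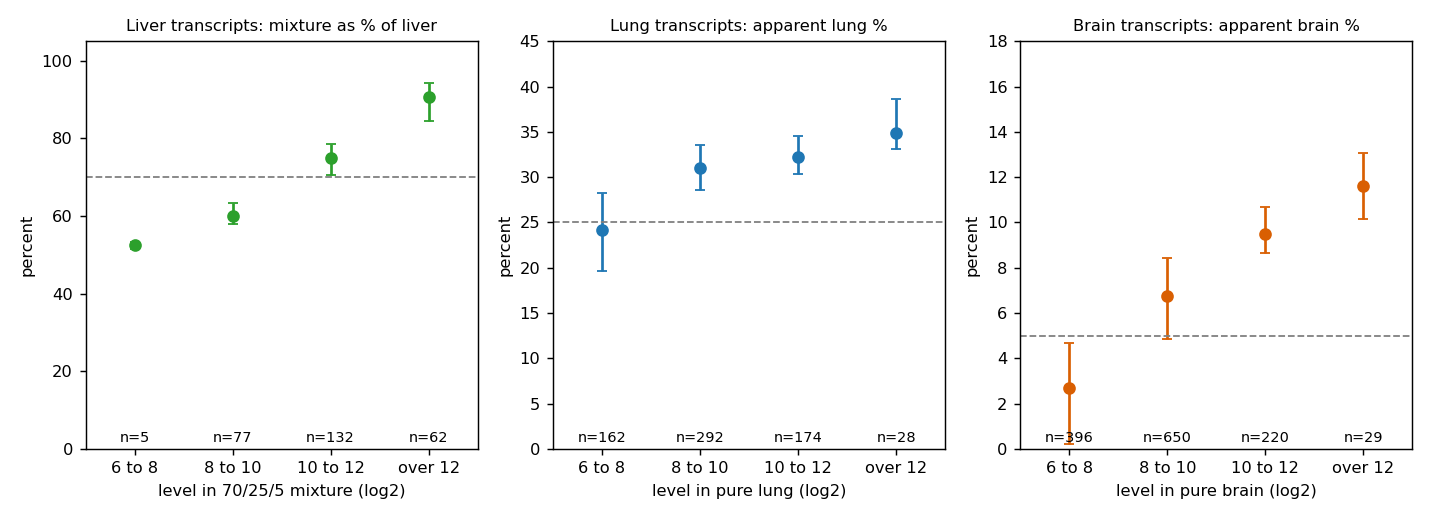
Median mixture level as a percent of liver for liver transcripts, and median apparent share of lung and brain transcripts, by level of the transcript (brain by the wider rule, bars show the quartiles, dashed lines the labelled shares, n the probe sets). Each panel climbs with level, from 52.5% to 90.7%, from 24.1% to 34.9% and from 2.68% to 11.6%. For lung and brain transcripts the level on the axis also enters the apparent share. The rules that chose these transcripts limit their share in another mixture, and lung signal is not subtracted from the brain share.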

How the data were processed

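The authors deposited log2 levels per probe set from Affymetrix rat arrays, and the submitters' processing notes name RMA as the normalization. Its version was not given in the sources used here. This method brings arrays to a like distribution, which can shift levels where tissues share out their RNA differently. Total RNA was labelled from 1 µg per the labels' protocols.

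The table held 31099 probe sets. The 57 controls were left out, and 31042 were tested. Of these, 20826 had 1 gene in the platform annotation, 436 several and 9780 none listed, with 0 symbols changed and 68 unmatched in the RefSeq table. For gene statements the probe set with the highest mean was used (14217 genes). limma 3.58.1 under R 4.3.3 fitted group means to all 42 arrays (28 residual degrees of freedom, 4.56 from the prior), with Benjamini-Hochberg adjustment over all probe sets. Changes were called at adjusted p under 0.05 and 1.2-fold, departures from linear mixing at 1.5-fold with delta-method errors, and tissue differences at 2-fold. Apparent shares carry delta-method errors and no test. Among the 6 liver and mixture arrays no replicate pair was identical (1 to 10 probe sets a pair with exactly equal values).

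Named were the 10 largest rises and falls, the 5 largest rises of brain genes, the 3 brightest members of each of 22 lists and the 5 largest departures each way. Other members were named to give the range of a list or where they went against it, and these, Eif2s3y and the other sex-dependent genes were chosen after their values were seen. The comparison, lists and tests were chosen with earlier results of these data known. Alternatives were tried for the fitted arrays, the variance model, scaling (median centring, quantile normalization, a curve through the hybridisation controls), background subtraction, dim probe sets, fold limits, the scale of mixing and each array left out. The controls were taken as added in equal amounts, which was not tested.

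On simulated arrays with 31042 probe sets, of which 200 changed, the comparison with liver found 11.5% of 1.2-fold changes, 90% of 1.5-fold changes and 100% of 2-fold changes. For departures it found 49.5% at 1.5-fold and 100% at 2-fold. The smallest change of each kind lay on the fold limit of its call, which holds its recovery down. In the data 61.5% of probe sets were called against liver, so these rates do not carry over directly. Plots were made in Python 3.11.15 with matplotlib 3.10.9.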

Additional observations from a re-analysis of the deposited data

How the results depend on the processing

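Of 1053 recomputed changes of the 81 genes named by rule, 1018 stayed on the same side of the call rule, 22 lost the call, 13 gained it and 0 called changes reversed. The uncalled changes of Alb, Apoc3, B2m and Cyp2c7 changed sign or reached 0 in 12 of these values. Leaving out each array in turn gave 6441 to 6561 probe sets higher, 12128 to 12436 lower, 2382 to 2417 lung-higher and 1902 to 1926 brain-higher rises, 297 to 351 departures above and 917 to 996 below, and 83 to 84 lung-list, 47 to 48 brain-list and 62 to 64 liver-list genes. Median centring gave 18847 lower and 2797 below linear mixing, quantile normalization 1864 below and background subtraction 1949 below. The control curve gave 467 lower, 18 above and 8 below, with 17 liver-list genes lower. Without the 60/35/5 mixture, an alternative chosen after seeing the data, it gave 11913 higher, 2516 lower, 124 above and 279 below. Leaving out dim probe sets changed the rises little, to 6266, but the falls to 6242 and the departures below to 474. Fewer features gave fewer calls with 1 probe set per gene. These were 3617 higher, 5332 lower, 1479 lung-higher, 980 brain-higher, 181 above and 332 below. Without a fold limit 2391 lay above and 15489 below, at a limit of 2-fold 26 and 24, and with mixing on the log2 scale 2831 and 274. For the scalings the cause was not tested. No paired analysis was possible because the labels give the arrays no shared replicate numbers. Technical replicates carry nothing about animals, and low levels near the controls limit folds.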

Other observations

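Among the 131 genes that came up from near the floor of liver, several lay outside the lists and were named after their values were seen. Of those higher in lung than in brain, Tmem100, a membrane protein of endothelium, went from 3.84 in liver to 9.95 ± 0.09 in the mixture (log2, SD, n = 3). The semaphorin gene Sema3g went from 3.85 to 9.50 ± 0.02 and the acidic chitinase gene Chia from 3.73 to 8.96 ± 0.08. The Wnt inhibitor gene Wif1 went from 3.91 to 8.77 ± 0.03. Tmem100 and Sema3g also read 7.82 and 7.31 in pure brain. Of those higher in brain than in lung, Scg5, a chaperone of secretory granules, went from 3.70 to 8.59. The vesicle amino acid transporter gene Slc6a17 went from 3.11 to 8.58, and Cnr1, the cannabinoid receptor of neurons, from 3.42 to 7.31. Cnr1 also read 6.61 in pure lung, so lung can contribute to its rise. Asns, asparagine synthetase, had no call between lung (7.32) and brain (7.87), and went from 3.80 to 6.35.

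Some liver transcripts were also bright in pure brain. Ttr read 13.09 there, Alb 12.21 and Itih3, a protease inhibitor chain, 11.31, against 4.51, 5.07 and 3.97 in pure lung. The 4 Xist probe sets stood in the mixture at 55.5% to 78.6% of liver. Cyp2c12 was at 100.2% of liver.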
